A study of Mus musculus with 6 samples.

Results

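The genes described here are 10 genes of the cyclic AMP (cAMP) response: the transcription factors Creb1, Crem and Atf1, and the phosphodiesterases Pde3a, Pde3b, Pde4a, Pde4b, Pde4d, Pde7b and Pde10a. They were chosen by name from the 26180 genes of the curated RefSeq annotation of mm10, as a pathway tied to the adipogenic medium. An Lsd1 peak was counted at a gene when its centre lay within the gene's span or 10 kb either side. By this rule the 10 genes held 64 of 43426 peaks in the myogenic library, 39 of 18893 in the adipogenic library and 65 of 33533 in the LSD1(OE) library, which merged into 110 of the 56729 regions of the series.

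cAMP is a second messenger made by adenylyl cyclases when Gs-coupled receptors are active. It releases the catalytic subunits of protein kinase A (PKA), which phosphorylate Creb1, Crem and Atf1, and these factors bind the cAMP response element (CRE) in target genes. Phosphodiesterases end the signal by hydrolysing cAMP, and isobutylmethylxanthine (IBMX), a component of common adipogenic cocktails, blocks most of them. An internal promoter of Crem drives the short repressor ICER, a known target of cAMP signalling.

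Lsd1 (Kdm1a) is a histone demethylase that acts in activating and repressing complexes. Its occupancy was measured by ChIP-seq in C2C12 cells, a mouse myoblast line that forms muscle cells in low serum, 1 day after differentiation was started, under 3 conditions. Wild-type cells were kept in myogenic medium with 2% horse serum, or in adipogenic medium with 10% FCS, 0.5 mM IBMX, 5 µM dexamethasone, 1 nM T3, 850 nM insulin, 1 µM rosiglitazone and 125 nM indomethacin. LSD1(OE) cells, a stable line that carries Flag-tagged LSD1 behind a tetracycline-dependent promoter, received the same adipogenic medium. The labels and the methods give different lengths of adipogenic induction, both longer than the 1 day after which these cells were fixed. According to the methods that line was selected with G418 and induced with doxycycline, an agent that nothing ascribes to the wild-type cultures, so the LSD1 level, the line and doxycycline cannot be told apart. The adipogenic and myogenic media differ in all the agents above and in serum, so that the part of IBMX in any difference between them cannot be told apart either. Each condition had 1 ChIP library and 1 input library, so no value has a replicate, every difference is one between single libraries, and no test between conditions was possible. Peak lists do not show whether the cells were muscle-like or fat-like, nor how much LSD1 they made.

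The sequences under 5 of the regions described below are shown first, on the plus strand of GRCm38.p6 (mm10), which is the coding strand of these genes. Each is a window of at most 201 bases around a peak summit, cut where it met an exon. Among the summits of a region, the window with the most motifs defined below was taken, full CREs first, and then the highest score. Capitals mark the core TGACG, or CGTCA on the other strand, and TGACGTCA, the palindromic full CRE, appears as 1 run of capitals. The Creb1 window at chr1:64532670-64532793 lies 134 to 11 bp before the transcription start site (TSS), and is shown as the strongest promoter peak of that gene. The Pde4b window at chr4:102511010-102511210 and the Pde4d window at chr13:109822524-109822724 are intronic, had a peak in all 3 libraries and hold a full CRE. The Pde10a windows at chr17:8525037-8525186, upstream of the first TSS, and chr17:8856606-8856806, in an intron, also had a peak in all 3 libraries and hold the core only.
Creb1 promoter: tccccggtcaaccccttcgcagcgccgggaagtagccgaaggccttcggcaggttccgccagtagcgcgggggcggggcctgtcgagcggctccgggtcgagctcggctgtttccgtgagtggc
Pde4b intron with CRE: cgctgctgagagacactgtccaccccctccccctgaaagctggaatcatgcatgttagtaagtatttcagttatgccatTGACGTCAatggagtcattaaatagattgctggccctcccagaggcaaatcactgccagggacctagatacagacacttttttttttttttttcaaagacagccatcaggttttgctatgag
Pde4d intron with CRE: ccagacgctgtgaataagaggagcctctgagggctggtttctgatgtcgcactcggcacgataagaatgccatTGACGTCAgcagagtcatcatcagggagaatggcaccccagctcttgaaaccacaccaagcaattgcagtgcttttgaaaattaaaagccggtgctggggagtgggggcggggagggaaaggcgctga
Pde10a upstream of the first TSS: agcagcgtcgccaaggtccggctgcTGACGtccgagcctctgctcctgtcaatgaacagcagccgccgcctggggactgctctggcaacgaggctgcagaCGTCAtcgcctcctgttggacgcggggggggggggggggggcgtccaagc
Pde10a intron: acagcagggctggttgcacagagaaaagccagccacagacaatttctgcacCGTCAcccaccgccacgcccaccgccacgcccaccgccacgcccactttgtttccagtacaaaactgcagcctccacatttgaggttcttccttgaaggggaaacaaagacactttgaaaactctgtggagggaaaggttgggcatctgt
The Creb1 window holds neither motif. Over its full length that promoter peak held the core 4 times in the myogenic, 5 in the adipogenic and 4 in the LSD1(OE) library, and no full CRE.

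Lsd1 peaks were present at 8 of the 10 genes in each library, and the same 8 genes were involved. As background, 62.5% of all genes had a peak in the myogenic library, 41.2% in the adipogenic library and 53.9% in the LSD1(OE) library. Pde3a and Pde7b had none in any library. The 64, 39 and 65 peaks of the myogenic, adipogenic and LSD1(OE) libraries amounted to 1.97, 1.20 and 2.00 peaks per 100 kb, compared with 1.59, 0.693 and 1.23 over the genome, intergenic sequence included. The median over genes was 2.55, 1.17 and 2.03 peaks per 100 kb for these 10 and 2.38, 0 and 1.17 for all genes. Relative to the myogenic library, the number at these genes was 0.609 times as large in the adipogenic library and 1.02 times in the LSD1(OE) library, while the genome-wide lists were 0.435 and 0.772 times as long. Much of the LSD1(OE) count came from Pde4d: without it, the 3 libraries had 45, 27 and 39 peaks.

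**Figure D1:**
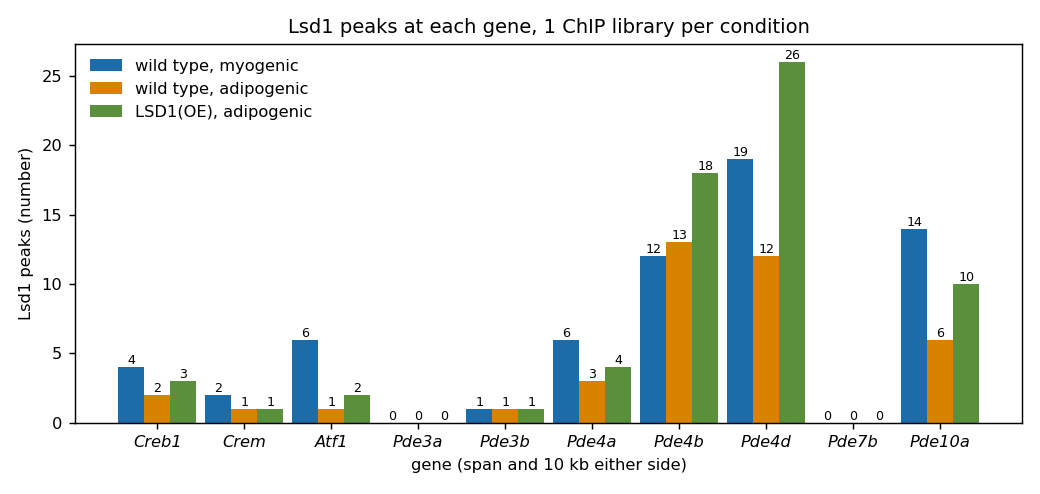
Number of Lsd1 peaks (vertical axis) at each of the 10 genes in the myogenic (blue), adipogenic (orange) and LSD1(OE) (green) libraries, 1 ChIP library each. Pde4b, Pde4d and Pde10a hold most of the peaks, and Pde4b is the only gene with more peaks in the adipogenic (13) than in the myogenic library (12).

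These totals depend on how many weak peaks each list holds. After duplicates were limited, 46155625 tags were left from the myogenic ChIP, 63915769 from the adipogenic ChIP and 55193310 from the LSD1(OE) ChIP, and the smallest peak had 27, 35 and 30 tags. Every peak carries a MACS score, 10 times −log10 of its p-value against the input, and the median score at these genes was 77.1 in the myogenic library, where all peaks had a median of 122. The medians were 100 against 112 in the adipogenic library and 129 against 116 in the LSD1(OE) library. When each list was restricted to its 18893 strongest peaks, the number in the adipogenic library, the counts at these genes became 16 (myogenic), 39 (adipogenic) and 38 (LSD1(OE)), so the myogenic library changed from more to fewer peaks than the adipogenic library. This cuts the lists at unlike scores, with lowest kept scores of 147 (myogenic), 50 (adipogenic) and 98.9 (LSD1(OE)). Scores also depend on depth and on the scaling of ChIP to input, and counts past a score are therefore given beside those with equal peak numbers, whereas tags per kb of peak per 1000000 ChIP tags, called density here, are used between libraries.

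Promoter peaks, centred within 2000 bp of one of the gene's own curated TSSs, were found in each library at 7 of the 10 genes, namely Creb1, Crem, Atf1, Pde3b, Pde4a, Pde4b and Pde10a. Of all genes, 46.8% had a promoter peak in the myogenic library, 27.0% in the adipogenic library and 37.3% in the LSD1(OE) library, and 23.5% had one in all 3. Several of these genes have alternative promoters, and of their 25 curated TSSs, 13, 10 and 11 were bound in the myogenic, adipogenic and LSD1(OE) libraries, compared with 46.8, 26.9 and 37.3% of all 31645 curated TSSs. Most peaks lay elsewhere, as 13 of 64, 10 of 39 and 11 of 65 were promoter peaks. Introns held the centres of 48, 30 and 56 peaks, some promoter peaks included. Most of the peaks lay at Pde4b, Pde4d and Pde10a, which span 353, 1302 and 460 kb. Shares over all peaks are not given here, so these counts are not compared with the genome.

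Of the 110 regions, 16 (14.5%) had a peak in all 3 libraries, compared with 20.6% of all regions. Another 9 (8.18%) had one in the myogenic and LSD1(OE) libraries but not in the adipogenic library, against 12.2% of all. Peaks in both wild-type libraries only were present in 6 regions (5.45%; background 4.38%), and peaks in both adipogenic-medium libraries only in 5 (4.55%; background 2.45%). Regions with a peak in a single library numbered 29 for the myogenic (26.4%; background 35.9%), 11 for the adipogenic (10.0%; background 3.70%) and 34 for the LSD1(OE) library (30.9%; background 20.8%). The 11 adipogenic-only regions were spread over Pde4b (6), Pde10a (2), Creb1, Pde4a and Pde4d (1 each). Of the 34 LSD1(OE)-only regions, 12 lay at Pde4d, 11 at Pde4b and 7 at Pde10a.

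Creb1, the founding member of the CREB family, had 1 strong promoter peak that all libraries shared. The peak held 165 tags in the myogenic library (score 962), 125 in the adipogenic library (score 208) and 128 in the LSD1(OE) library (score 351). Its density was 2.31 in the myogenic library (95% Poisson interval 1.97 to 2.70), 1.26 in the adipogenic library (1.04 to 1.50) and 1.31 in the LSD1(OE) library (1.09 to 1.56). These intervals cover counting error only, here and below. The myogenic value stood above both others, and the adipogenic density was 0.543 times the myogenic one (0.427 to 0.689). Only 2.13% of all regions shared by these 2 libraries had a ratio as low. The LSD1(OE) to adipogenic ratio was 1.04 (0.810 to 1.35). The other 6 Creb1 regions were each bound in 1 library and had scores between 54.8 and 72.8.

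Crem, on chromosome 18, was bound at its internal promoter in all libraries and also at its upstream promoter in the myogenic library. The internal promoter, from which the curated short transcripts of the ICER type start at a pair of TSSs, had a peak in all 3 libraries. That peak held 68 tags (score 198) in the myogenic library, 74 (score 100) in the adipogenic library and 91 (score 256) in the LSD1(OE) library. The densities were 1.37 (1.06 to 1.74), 1.11 and 1.37 (1.10 to 1.68) in that order, and the ratio of adipogenic to myogenic was 0.812 (0.576 to 1.15), so no difference was detectable at this depth. The adipogenic peak was among the weaker ones of its list, with an FDR of 0.18%, and was lost at an FDR of at most 0.1%. In contrast, the upstream promoter had a peak in the myogenic library only, with 111 tags, a score of 523 and a density of 1.91 (1.57 to 2.30). The nearest adipogenic and LSD1(OE) peaks lay 56689 and 56532 bp downstream of the second of its TSSs, at the internal promoter. The other TSSs, including the one from which most curated Crem transcripts start, had no promoter peak in any library. The internal peak contains a pair of full CREs in each library, 40 bp before and 27 bp after the last TSS. Of all peaks, 0.0898% (myogenic), 0.106% (adipogenic) and 0.0895% (LSD1(OE)) held 2 or more.

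Atf1, the third factor of the family, had a promoter peak in all libraries, with 263 tags over 3531 bp (score 810) in the myogenic, 160 tags over 2107 bp (score 198) in the adipogenic and 126 tags over 1447 bp (score 398) in the LSD1(OE) library. The densities were 1.61 (1.42 to 1.82), 1.19 (1.01 to 1.39) and 1.58 (1.31 to 1.88). By density the adipogenic library was therefore the lowest, at 0.736 (0.601 to 0.900) times the myogenic value. The LSD1(OE) density was 1.33 (1.04 to 1.69) times the adipogenic one. Over all shared regions the median ratios were 0.800 and 1.09. The higher LSD1(OE) density rests on the division by peak length, as that peak was shorter and held fewer tags for the depth of its library. The other 5 myogenic peaks at Atf1 had scores of 51.9 to 68.2. Atf1 lies on chromosome 15, where promoter peaks were more frequent than elsewhere, at 61.2, 52.1 and 57.2% of genes in the myogenic, adipogenic and LSD1(OE) libraries against 47.7, 27.2 and 38.0% on the other autosomes, and its part in the Atf1 values was not tested.

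The PDE3 enzymes degrade cAMP and are inhibited by cGMP, and Pde3b is the form through which insulin lowers cAMP in adipocytes. Pde3b had a single region, at its promoter. The peak held 148 tags in the myogenic library (score 565), 104 in the adipogenic library (score 136) and 86 in the LSD1(OE) library (score 156). The densities of 1.65 (1.39 to 1.94), 1.11 and 1.13 placed the myogenic library highest. The adipogenic to myogenic ratio was 0.675 (0.520 to 0.873), and 18.5% of all regions shared by these libraries had a ratio as low. The LSD1(OE) to adipogenic ratio was 1.02 (0.755 to 1.37) at this peak. Its centre moved with the library, from 258 bp after the TSS in the myogenic library to −397 and −390 bp from it in the adipogenic and LSD1(OE) libraries, where the nearest TSS was that of 4933406I18Rik, so the peak cannot be assigned to 1 of the genes. Pde3a, the cardiovascular form, was without a peak over its span of 257 kb, and the nearest peaks lay at −557895, −625830 and −315023 bp from its TSS in the myogenic, adipogenic and LSD1(OE) libraries.

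The PDE4 family is specific for cAMP, and its genes produce long and short forms from separate promoters. Pde4a had 8 regions, none of which was bound in all 3 libraries, although a peak lay within 2000 bp of its first TSS in each. There the adipogenic peak was centred 1209 bp before the TSS (113 tags, score 177), whereas the LSD1(OE) peak was centred 442 bp after it (71 tags, score 185). The myogenic library had a peak on either side, at 754 bp before (score 70.4) and 465 bp after (score 160). The second TSS was bound in the myogenic (score 107) and adipogenic (score 92.7) libraries and the last TSS in the LSD1(OE) library alone (score 51.0). The strongest Pde4a peak of the myogenic library lay 4284 bp upstream of the first TSS (102 tags, score 434) and that of the LSD1(OE) library 2361 bp downstream (148 tags, score 427). Both regions were bound in these 2 libraries and not in the adipogenic library.

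Pde4b, a PDE4 gene that is itself induced by cAMP in several cell types, was the one member with more peaks in the adipogenic than in the myogenic library. It had 12 peaks in the myogenic, 13 in the adipogenic and 18 in the LSD1(OE) library. As many peaks or more were found at 1.33, 0.183 and 0.256% of all genes, in that order, without correction for gene length. With equal numbers of peaks per list the counts were 1, 13 and 13, at lowest kept scores of 147, 50 and 98.9. With each score divided by the factor that scaled ChIP tags to the input, and a cut-off of 50, the counts were 2, 12 and 13. These divided scores only approximate ChIP tags not scaled up, since no peak was called again. A score of at least 100, which depends on the depth and scaling of each library, was reached by 1 myogenic, 7 adipogenic and 13 LSD1(OE) peaks. No other member had more adipogenic than myogenic peaks at a score of at least 100. However, with equal numbers of peaks Creb1 (1 and 2, myogenic and adipogenic), Pde4d (5 and 12) and Pde10a (2 and 6) did as well. With the divided scores Creb1 (1 and 2) and Pde10a (5 and 6) did so too.

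**Figure D2:**
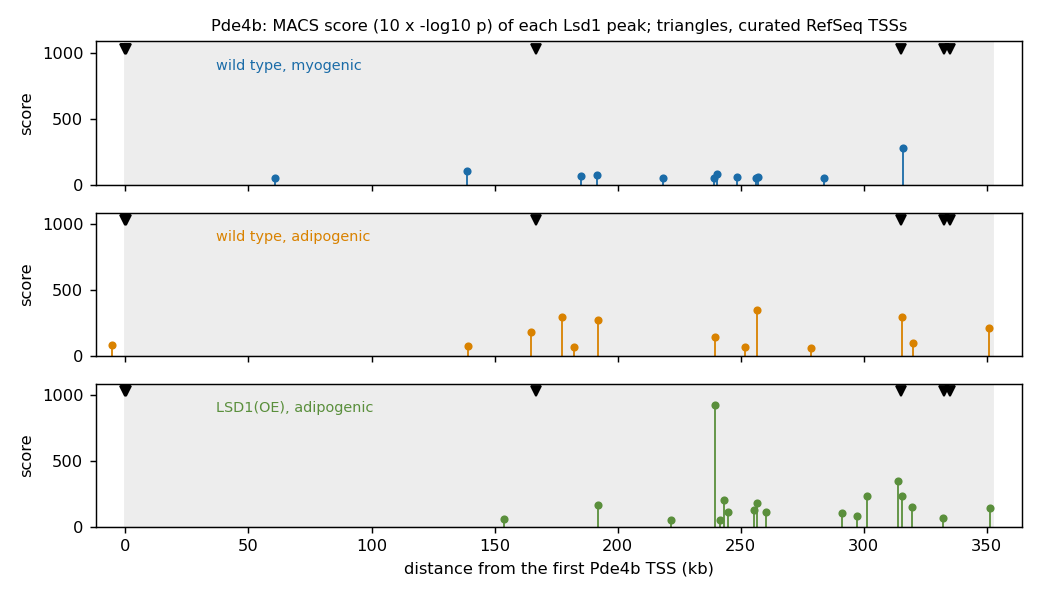
MACS score (vertical axis) of each Lsd1 peak at Pde4b against the distance of its centre from the first TSS in kb (horizontal axis), with 1 panel per library, the gene span in grey and the curated TSSs as triangles. The myogenic panel holds 1 peak with a score of at least 100, at the fourth TSS, and the tallest LSD1(OE) peak (score 921) is intronic.

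The promoter bound in all libraries was that of the fourth TSS, with 92 tags (score 276) in the myogenic, 144 (score 290) in the adipogenic and 87 (score 232) in the LSD1(OE) library. Its densities of 1.43, 1.4 and 1.34 did not differ beyond counting error, with ratios of 0.979 (0.748 to 1.29) for adipogenic over myogenic and 0.952 (0.721 to 1.25) for LSD1(OE) over adipogenic. The first 3 TSSs had no promoter peak in any library. An adipogenic peak of 113 tags (score 179) missed the third TSS narrowly, 2017 bp before it. The LSD1(OE) library had a further promoter peak 1438 bp before the fourth TSS (116 tags, score 350) and a weak one 675 bp before the fifth (score 67.8).

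Intronic regions of Pde4b differed more than this promoter. The region with the CRE printed above was the strongest Pde4b region of the adipogenic library, with 159 tags, a score of 349 and a density of 1.48 (1.26 to 1.73). In the myogenic library it held a pair of weak peaks, with scores of 50.6 and 59.7, and in the LSD1(OE) library peaks with scores of 129 and 178. The printed window is centred on the summit of the myogenic peak with score 50.6, 17 bp from the CRE. The CRE lies 585 bp from the adipogenic summit and 553 bp from that of the LSD1(OE) peak with score 178. The adipogenic density was 1.36 (1.02 to 1.84) times the myogenic one, a ratio at or above 99.8% of all shared regions. The LSD1(OE) density was 0.752 (0.598 to 0.946) times the adipogenic one, with 1.03% of regions as low. However, the LSD1(OE) peaks there held 150 tags over 2438 bp and the adipogenic peak 159 tags over 1678 bp. As the LSD1(OE) library had fewer ChIP tags, its lower density rests on the division by peak length. Another shared intronic region, 25187 bp after the third TSS, had 33 myogenic (score 73.5), 117 adipogenic (score 274) and 70 LSD1(OE) tags (score 169), and an adipogenic to myogenic ratio of 1.33 (0.900 to 2.03). The strongest adipogenic peak absent from the other libraries spanned 2360 bp of an intron (187 tags, score 297) and holds a full CRE 365 bp from its summit. The highest LSD1(OE) score at Pde4b, 921 (189 tags), was that of an intronic region 72848 bp after the third TSS. Its sequence is not described here, and no comparison between libraries is drawn from it.

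Pde4d, the longest of the genes with a span of 1302 kb, had 19 peaks in the myogenic, 12 in the adipogenic and 26 in the LSD1(OE) library, the most of these genes in the first and last and 1 fewer than Pde4b in the adipogenic library. All were intronic, and its single curated TSS was unbound. The peaks lay between 31698 and 1248763 bp downstream of that TSS, and for many the nearest TSS was that of a nested microRNA gene, Mir582 or Mir1904. Of 7 TSSs in the full RefSeq annotation, which includes predicted transcripts, 1 had a peak within 2000 bp in the myogenic and in the LSD1(OE) library and 0 in the adipogenic library. Peaks with a score of at least 100 numbered 11, 5 and 14. With equal numbers of peaks per list the counts were 5, 12 and 14, so the order of the myogenic and adipogenic libraries depends on that choice, while the LSD1(OE) library had the most in both. The number of peaks per 100 kb at Pde4d was 1.44, 0.908 and 1.97, against 1.59, 0.693 and 1.23 over the genome.

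**Figure D3:**
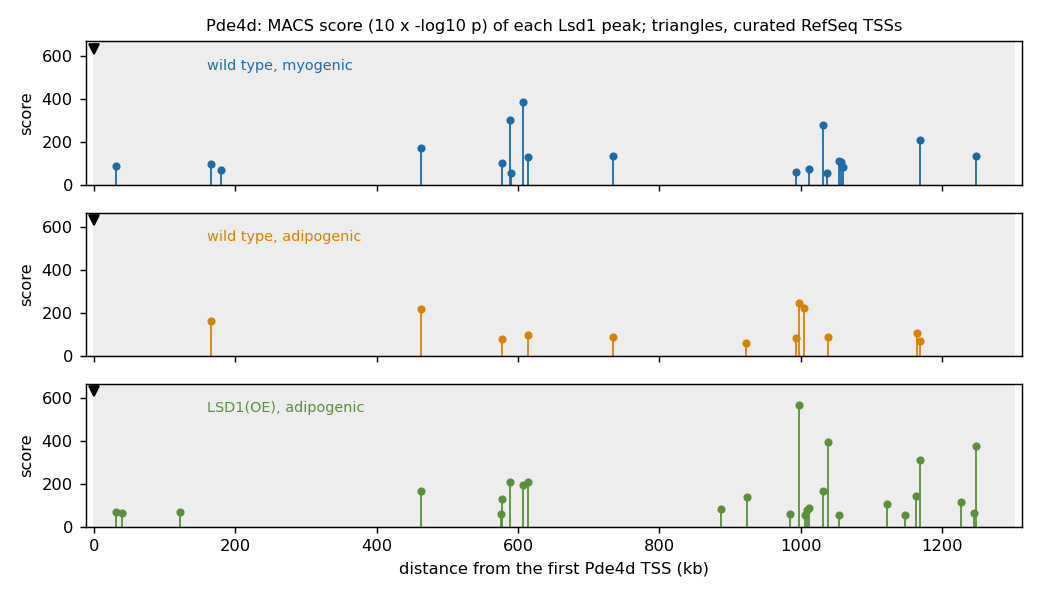
MACS score (vertical axis) of each Lsd1 peak at Pde4d against the distance of its centre from the curated TSS in kb (horizontal axis), with 1 panel per library, the gene span in grey and the TSS as a triangle. No peak lies at the TSS, and the tallest LSD1(OE) peak (score 567) has an adipogenic (score 247) but no myogenic counterpart.

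The strongest Pde4d peak of the LSD1(OE) library, 998189 bp from the TSS, had 162 tags and a score of 567, and at the same place the adipogenic library had 142 tags and a score of 247, its own strongest peak at the gene. The densities were 1.60 (1.36 to 1.86) and 1.29 (1.08 to 1.52), with a ratio of 1.24 (0.985 to 1.57), and no myogenic peak overlapped. The strongest myogenic peak, 606508 bp from the TSS (107 tags, score 385), was shared with the LSD1(OE) library (73 tags, score 194) and had no adipogenic peak. The region with the CRE printed above had 67 myogenic (score 209), 74 adipogenic (score 70.1) and 96 LSD1(OE) tags (score 311). There the densities of 1.41 (1.09 to 1.79), 1.12 and 1.50 (1.21 to 1.83) were lowest in the adipogenic library, but the ratios of 0.796 (0.564 to 1.12) and 1.33 (0.975 to 1.83) include 1. The CRE lies 18 bp from the myogenic, 208 bp from the adipogenic and 23 bp from the LSD1(OE) summit. The genes whose peak counts over the 3 libraries were most like those of Pde4d, by the distance between log2(peaks + 1) values, were Lpp (21, 11 and 26 peaks, distance 0.180), Gramd4 (17, 11 and 23) and Smad3 (23, 12 and 27).

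Pde10a, which hydrolyses both cAMP and cGMP and is best known from the striatum, had Lsd1 at its promoters to differing degrees in the 3 libraries. At the first TSS the LSD1(OE) library had 1 peak of 6141 bp with 612 tags and a score of 2507, higher than 99.7% of the peaks of that library. The adipogenic library had a pair of peaks there, of 261 tags (score 479) and 67 tags (score 79.1), and the myogenic library a pair of weak peaks of 28 and 37 tags (scores 52.8 and 66.8). The density over these peaks was 1.03 in the myogenic, 1.27 in the adipogenic and 1.81 in the LSD1(OE) library. The ratio of LSD1(OE) to adipogenic was 1.42 (1.24 to 1.63), at or above 94.5% of all shared regions. That of adipogenic to myogenic was 1.23 (0.937 to 1.63), at or above 98.9%. The printed window of this domain lies at the adipogenic summit with score 479 and holds the core on each strand at separate places. No core lay within 150 bp of the other summits of the domain, that of the LSD1(OE) peak included.

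**Figure D4:**
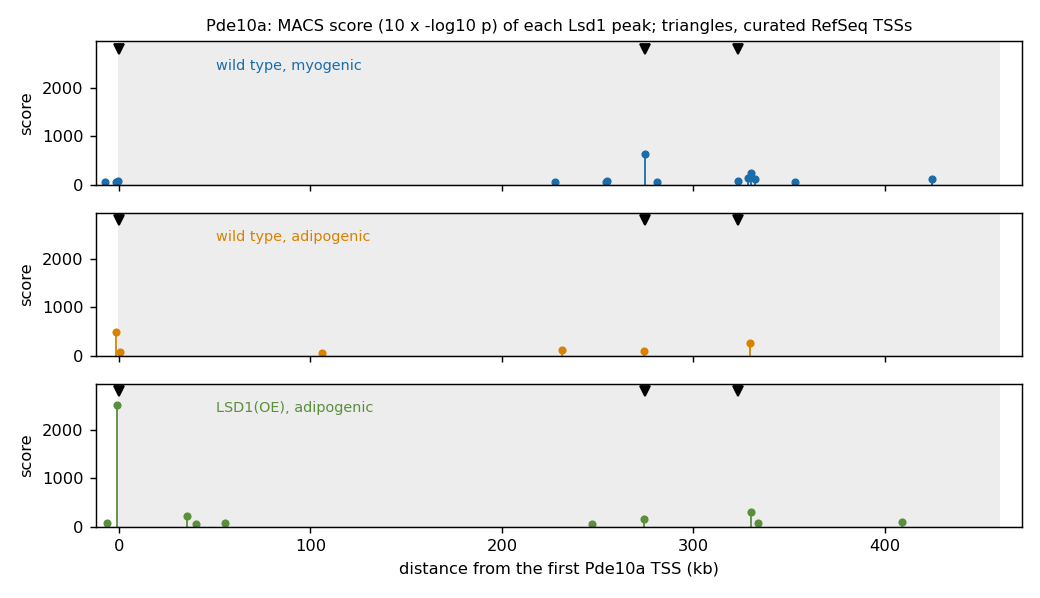
MACS score (vertical axis) of each Lsd1 peak at Pde10a against the distance of its centre from the first TSS in kb (horizontal axis), with 1 panel per library, the gene span in grey and the curated TSSs as triangles. The tallest peak is at the second TSS in the myogenic panel (score 627) and at the first TSS in the adipogenic (479) and LSD1(OE) (2507) panels.

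At the second Pde10a TSS the myogenic library was instead the highest, with 164 tags (score 627) in the myogenic library and 73 tags in both the adipogenic (score 88.3) and the LSD1(OE) library (score 169). The densities were 1.65 (1.41 to 1.93), 1.06 and 1.23, and the adipogenic to myogenic ratio was 0.641 (0.480 to 0.850), with 12.6% of all shared regions as low. Within the myogenic library the second TSS therefore had the strongest Pde10a peak and within the others the first. The last TSS had a peak in the myogenic library only, a weak one with a score of 67.7. An intronic region 6154 bp further downstream was shared by all libraries, with highest scores of 236, 252 and 307 and density ratios of 0.865 (0.677 to 1.10) for adipogenic over myogenic and 1.15 (0.892 to 1.48) for LSD1(OE) over adipogenic. Pde7b, another cAMP-specific enzyme, had no peak over its span of 328 kb. The absence is not rare for long genes, as 27.8% of the 540 genes with spans of at least 300 kb, and 20.5% of the 2432 of at least 100 kb, had no peak in any library.

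Over all the regions of these genes that the 2 wild-type libraries shared, the density was lower in the adipogenic library at 13 of 22 (59.1%), compared with 88.2% of all 14149 shared regions of the genome. The median log2 ratio of adipogenic to myogenic was −0.12, with a range of −0.88 to 0.45, against −0.32 over the genome. Without division by peak length the median was 0.12, so its direction depends on the measure, and peaks of the adipogenic library were longer (median 1138 bp over the whole list, against 945 bp). The 5 lowest ratios were those of the promoters of Creb1, Pde3b and Atf1, the second TSS of Pde10a and the CRE region of Pde4d. The 4 highest were those of 2 intronic Pde4b regions described above, the first TSS of Pde10a and an intronic Pde4d region (ratio 1.16, 0.809 to 1.68). For LSD1(OE) over adipogenic, 15 of 21 regions (71.4%) were higher, against 70.6% of all, with a median log2 ratio of 0.20 against 0.13. For LSD1(OE) over myogenic the median was −0.03 over 25 regions, against −0.19 over the genome. The 3 contrasts share libraries in pairs and are not independent. The lowest densities at the 16 regions with a peak in all libraries were 1.03, 1.06 and 1.11. Densities were computed only where a peak was called, which limits the ratios of weak regions.

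**Figure D5:**
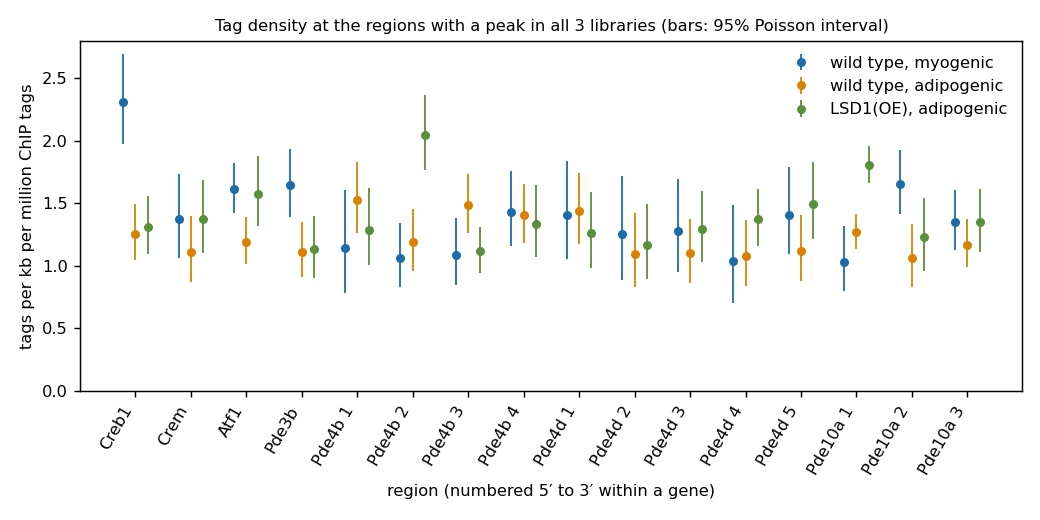
Tags per kb of peak per 1000000 ChIP tags (vertical axis, from 0) at the 16 regions with a peak in all 3 libraries (horizontal axis, numbered 5′ to 3′ within a gene); bars are 95% Poisson intervals, which cover counting error only. The myogenic points of Creb1, Pde3b and Pde10a region 2 lie above the other libraries, and the LSD1(OE) point of Pde10a region 1 does so. Pde4b region 2 is plotted but not compared.

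Full CREs were found in 3 myogenic (4.69%), 4 adipogenic (10.3%) and 3 LSD1(OE) peaks (4.62%) at these genes, in 4 regions of Crem, Pde4b and Pde4d. Of all peaks, 2.04, 2.72 and 2.09% held one. The numbers are small, and peaks of one region share their sequence. Counting only 150 bp either side of the summit, 2 of 64 myogenic, 0 of 39 adipogenic and 1 of 65 LSD1(OE) peaks at these genes held a full CRE. The shares over all peaks were 0.887, 1.05 and 0.832%. Within 150 bp of the summit, 15.6, 17.1 and 15.7% of all peaks had the core TGACG on either strand, and 12 of 64, 7 of 39 and 13 of 65 peaks at these genes did (18.8, 17.9 and 20.0%). In the RefSeq promoter table, which covers 250 bases before to 50 after a TSS, 1.79% of 32851 promoters held the full CRE and 20.8% the core. It has 13 promoters of 7 of these genes, of which 0 held the full CRE and 3, at Atf1, the second Pde4a TSS and the third Pde4b TSS, held the core. A match is a description of the letters and does not show that a factor was bound.

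Of 76 further genes of cAMP signalling, in 7 lists chosen by function, 49 had a promoter peak in the myogenic, 38 in the adipogenic and 45 in the LSD1(OE) library, while the shares over all genes are those given above. The promoter was bound in all 3 libraries at 35 of the 76 (23.5% of all genes), in the myogenic and LSD1(OE) but not the adipogenic library at 9 (10.8% of all genes) and in none at 25 (49.7% of all genes). The 9 are thus near the share over all genes. Among the 14 other phosphodiesterases, 6, 4 and 4 had a promoter peak. Genes bound in all 3 libraries are named in this and the next lists in the order of the lowest of their 3 scores. They were here Pde5a (scores 952, 448 and 509) and Pde2a (452, 244 and 377), which act on cGMP or are stimulated by it, and Pde7a (311, 106 and 129), the paralogue of Pde7b. Pde8a had none in the adipogenic library (score 152 in the myogenic and 197 in the LSD1(OE) library).

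Upstream in the pathway, 6, 4 and 6 of 15 genes for adenylyl cyclases and G alpha subunits had a promoter peak, with the highest lowest scores at Adcy7 (1809, 598 and 721), Adcy9 (723, 82.5 and 467) and Gnas (1046, 56.5 and 291), which encodes the stimulatory subunit. Adcy6 and Gnai3 had a promoter peak in all but the adipogenic library. Of 9 Gs-coupled receptors, 5, 5 and 4 were bound at the promoter, among them the prostaglandin E2 receptor Ptger4 (2873, 1546 and 1562) and the adenosine receptor Adora2b (688, 450 and 861). Adora2a was bound in all but the adipogenic library. Of the 11 PKA subunits, PKA inhibitors and Epacs, the promoter was bound at 9, 6 and 10. By the lowest score the shared peaks came in the order of the inhibitor Pkia (516, 261 and 567), the inhibitor Pkig (383, 209 and 362) and the regulatory subunit Prkar1a (568, 133 and 351), whereas Prkar1b, Prkar2a and the catalytic subunit Prkacb lacked a promoter peak in the adipogenic library alone. The anchoring proteins of PKA were bound at 7, 6 and 7 of 10 promoters, with Akap1 (1330, 266 and 1169), Akap9 (266, 387 and 354) and Akap7 (381, 118 and 268) first by the lowest score, and Akap8 unbound in the adipogenic library alone.

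Downstream, the 5 CREB coactivators had 5, 4 and 5 bound promoters. Crtc2 (439, 114 and 75.3), Crtc1 (185, 64.0 and 253) and Ep300 (1400, 52.6 and 394) were bound in all libraries, as was Crtc3 at lower adipogenic score, and Crebbp was the one without an adipogenic promoter peak (myogenic score 147, LSD1(OE) score 152). Of 12 genes that CREB is known to induce, 11, 9 and 9 had a promoter peak. The highest lowest scores were those of Junb (2272, 1325 and 1089), Cebpb (1750, 611 and 1479), an early regulator of adipogenesis, and the phosphatase Dusp1 (580, 534 and 1602). Ppargc1a and Ccna2 had a promoter peak in the myogenic library only, with scores of 92.4 and 139. Pck1, a liver and adipose gene, had none.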

How the data were processed

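Lsd1 ChIP-seq was analysed from the peak lists that the authors deposited, 1 for each of 3 ChIP libraries called against its own input. Reads of 50 bp were mapped to mm10 (Bowtie2 and MACS 1.41 in the submitters' processing notes), and the file headers name MACS 1.4.2 with a p cut-off of 1e-05. Per the file headers, each deposited peak has a count of ChIP tags after duplicates were limited, a score (−log10 of the p-value, multiplied by 10), a fold enrichment over the local background and an FDR in percent. The fold enrichment was not compared between libraries. MACS multiplied the ChIP tags by 1.90 (myogenic), 1.28 (adipogenic) and 1.82 (LSD1(OE)) to match the input before scoring. All peaks had an FDR under 1%, the limit in the methods. The second deposited format holds the same peaks and was not used.

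Spans and 31645 TSSs came from curated RefSeq transcripts on GRCm38.p6, and sequences from that genome. Peaks that overlapped by at least 1 bp were merged into regions. Density is tags per kb per 1000000 filtered ChIP tags, and over a region the tags and lengths of its peaks were summed. Intervals are 95% exact Poisson intervals, or their equivalent for a ratio of 2 counts, and cover counting error only. With 1 library per condition no test was made. The steps were tested on simulated peaks.

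The 10 genes and the pathway lists were chosen with earlier results of these data known. All 10 genes are named. Most pathway genes are named by rule: up to 3 per list bound in all libraries with the highest lowest score, and up to 3 bound in all but the adipogenic library. Crtc3, Ppargc1a, Ccna2 and Pck1 were named beyond this rule. Over all lists, 3 genes had a promoter peak in the myogenic library only, 1 in the adipogenic library only and 1 in the LSD1(OE) library only. Akap2 had no curated entry under that name. Alternatives were a stricter FDR or score, equal peak numbers, divided scores, and other flanks, promoter windows and scalings of density. Divided scores are deposited scores over the ChIP scaling factor of the library, cut at 50, and approximate unscaled ChIP tags without new peak calling. Leaving out Pde4d or Pde4b was added after seeing the data. Scripts ran under Python 3.11.15, with Matplotlib 3.10.9 for figures and SciPy 1.17.1, pandas 2.3.3 and NumPy 2.4.6 for the values. One pathway gene that the rule names and the sequence of 1 region are not reported here. RNA-seq and reads were not analysed here.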

Additional observations from a re-analysis of the deposited data

How the results depend on the processing

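No paired analysis was possible because each condition had 1 ChIP library, and for the same reason no replicate could be left out. Of 124 alternative values for 19 results, 97 stayed within the limits set for an unchanged value and 27 moved. A reversal could not be called, since counts have no sign and the intervals of both main density ratios include 0. Of these 10 genes, 6 to 9 had a peak and 6 to 8 a promoter peak in a library under any of the settings tried, against 8 and 7. Stricter settings use fewer peaks by construction. At an FDR of at most 0.1% the genes held 23 (myogenic), 17 (adipogenic) and 33 (LSD1(OE)) peaks, with 6 regions shared by all, 16 myogenic and not adipogenic, 20 LSD1(OE) and not adipogenic, and 5 adipogenic and not LSD1(OE). At a score of at least 100 these values were 26, 20 and 38 peaks and 7, 18, 24 and 7 regions. With equal peak numbers there were 16 myogenic and 38 LSD1(OE) peaks, 9 regions shared by all, 7 myogenic and not adipogenic, 29 adipogenic and not myogenic, and 17 LSD1(OE) and not adipogenic. With scores divided by the ChIP scaling factor and cut at 50 there were 28 myogenic and 39 LSD1(OE) peaks. Of the regions, 12 were then myogenic and not adipogenic, and 19 LSD1(OE) and not adipogenic. With all deposited peaks the regions numbered 16 (shared by all), 38, 16, 43 and 17 for myogenic and not adipogenic, adipogenic and not myogenic, LSD1(OE) and not adipogenic, and adipogenic and not LSD1(OE). Without a flank 31 pathway genes had an adipogenic peak, against 47. The median log2 density ratio of adipogenic to myogenic was 0.12 without division by peak length, against −0.12. Without Pde4d the LSD1(OE) library had 39 peaks. Beyond the use of fewer peaks or genes, the cause was not tested. Depth limits these results to sites with at least 27, 35 and 30 tags in the myogenic, adipogenic and LSD1(OE) libraries.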
